A study of Mus musculus with 4 samples.

Results

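A set of 55 mouse genes of the interferon response and of antigen presentation by major histocompatibility complex (MHC) class I was read in Py-4-1 cells, mouse hemangioendothelioma cells, which stem from an endothelial tumour. The genes were listed by function in 4 classes: 19 regulators, 17 antiviral effectors, 7 GTPases and 12 genes of class I presentation. Of the 55, 50 had a probe set that the platform annotation assigns to that gene alone, out of 12393 such genes on the array. Where a gene had several, the brightest one by mean log2 value was used. Isg15, H2-T23 and Psme2 were covered only by probe sets shared with other genes, and Rigi and Xaf1 had no probe set of that name, so that these 5 have no values here.

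The study compared 2 Py-4-1 clones transfected with pcDNA/Prox1, each described as a stable Prox1-expressing clone, with 2 clones transfected with pcDNA, described as control-transfected. Prox1 is a homeobox factor that turns endothelial cells towards a lymphatic fate, and pcDNA is the plasmid both groups carry. Each clone was measured once, on 1 one-colour Affymetrix array, from total RNA of a nearly confluent dish. The spread within a group therefore mixes clonal, culture and array differences, and p-values measure only that spread.

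Interferons are secreted proteins that bind receptors of the Ifnar or Ifngr family and, through Jak kinases, activate transcription factors of the Stat and Irf families. Promoters of responding genes carry the interferon-stimulated response element (ISRE), which complexes with Irf9 bind, or the gamma-activated site (GAS). The genes switched on include proteins that block viral RNA or entry, guanylate-binding and immunity-related GTPases that act on intracellular pathogens, and the machinery that cuts proteins into peptides, pumps these into the endoplasmic reticulum and shows them on class I molecules. Endothelial cells respond to both types of interferon and carry class I molecules constantly.

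The Prox1 probe set did not separate the groups. It read 62.4 and 44.3 in pcDNA/Prox1 clones 1 and 2, against 52.1 and 60.5 in pcDNA clones 1 and 2 (log2 change -0.05, limma without the filter on dim probe sets, adjusted p = 0.963). The highest of 27 probe sets for Bacillus control transcripts, foreign to the mouse, read 88.4 and 97.5 on the pcDNA/Prox1 arrays and 45.3 and 101 on the pcDNA arrays. The groups below are those of the labels; the sources used here do not say whether the transfected sequence covers the probe set. Of 10 endothelial markers 9 lay above the highest Bacillus control on all arrays, and their summed intensity was 37153 and 34591 in the pcDNA/Prox1 clones, against 26749 and 33812 in the pcDNA clones. Leukocyte markers, which could come with interferon genes from other cells, summed to 1869.7 and 1954 over 13 probe sets in the pcDNA/Prox1 clones, against 1826 and 2280.4 in the pcDNA clones, and of these 13 probe sets 5 lay above the highest Bacillus control on all arrays. Those 5 were Cd68, Csf1r, Cd14, Lyz2 and Adgre1. Cd68, the brightest, read 708 and 806 in the pcDNA/Prox1 clones and 847 and 970 in the pcDNA clones. Csf1r read 375 and 335 in the pcDNA/Prox1 clones and 240 and 443 in the pcDNA clones. Ptprc, the common leukocyte antigen, read 21.3 and 36.5 in the pcDNA/Prox1 clones and 15.2 and 51.2 in the pcDNA clones, under the highest Bacillus control of each array. The part of other cells in the results was not tested. In bulk RNA, fewer cells of a type and less RNA per cell cannot be told apart.

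Of the 50 genes, 45 passed the filter (above the median of their array on at least 2 of 4 arrays), with intensities between 124 and 16136, and all 45 exceeded the highest Bacillus control on every array. Of the 45, 42 lay above the array median on all arrays, and the exceptions were Gbp2 and Psmb9, under it in pcDNA clone 1, and Gbp3, under it in both pcDNA clones. Gbp3 was the 1 gene that passed the filter through the pcDNA/Prox1 arrays alone. Irf2, Socs1, Ifitm1, Mx1 and Mx2 did not pass. Mx1 and Mx2, dynamin-like antiviral GTPases, read between 22.2 and 42.1 in the 4 clones, below the highest Bacillus control of each array. The interferon genes themselves were dim: the 7 with a probe set of their own (Ifna1, Ifna2, Ifna4, Ifna5, Ifna11, Ifnb1 and Ifng) all failed the filter.

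**Figure D1:**
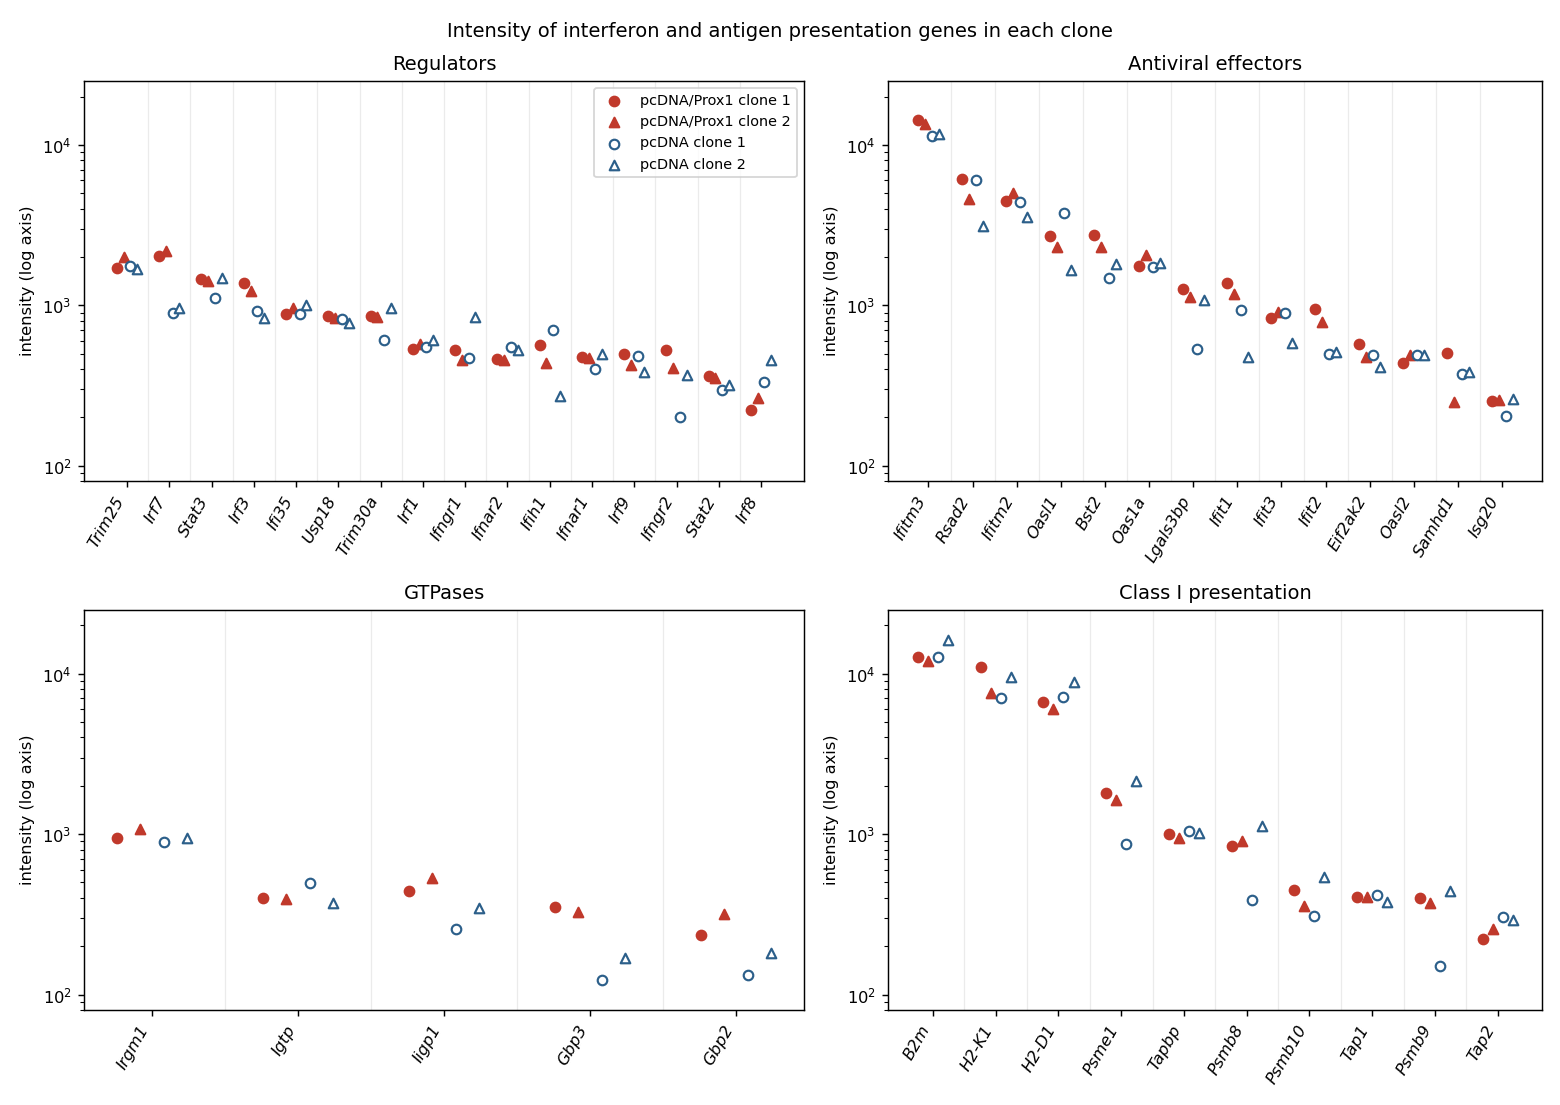
Intensity (log axis) of the 45 tested genes in each clone, by class and in order of mean level, with filled symbols for pcDNA/Prox1 clones and open symbols for pcDNA clones (circles, clone 1, triangles, clone 2). Irf7, Gbp3 and Ifit2 are among the genes that stand apart by group, and Gbp3 passed the filter through the pcDNA/Prox1 arrays alone. For Psmb8, Psmb9, Psme1, Oasl1 and Ifih1 the 2 open symbols enclose both filled ones.

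More of the genes had higher than lower values in the pcDNA/Prox1 clones, by a small amount and with none past the threshold. The class I presentation genes did not share this lean. The genes were chosen with earlier results of these data known, so the shares below describe the list. Changes are differences of mean log2(intensity + 47.2), pcDNA/Prox1 minus pcDNA, tested with limma over all 11656 probe sets that passed the filter and called at an adjusted p under 0.05. Limma called 0 of the 45 genes, where 0.103% of all probe sets tested (12 of 11656) were called, 0.0944% as higher and 0.00858% as lower. At an unadjusted p under 0.05, 9 of the 45 genes (20.0%) were higher and 1 was lower, where 8.65% of all probe sets were higher and 5.88% lower. The median log2 change was 0.15 over the 45 genes and 0.01 over all probe sets tested (0.09 over the genes without pcDNA clone 1), and 31 of the 45 changes (68.9%) were positive, where 51.5% of all were. In 15 genes (33.3%) both pcDNA/Prox1 clones read above both pcDNA clones, and in 5 (11.1%) both read below, where 23.9% and 22.3% of all probe sets did so. The 9, the 31 and the 15 each include Gbp3, which passed the filter through the pcDNA/Prox1 arrays alone.

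By class, the median log2 change was 0.63 for the 5 GTPases tested, 0.25 for the 14 antiviral effectors, 0.10 for the 16 regulators and -0.003 for the 10 class I presentation genes. Of the 10 genes at an unadjusted p under 0.05, 4 were regulators, 3 antiviral effectors and 3 GTPases. The median of 0.63 and the 3 GTPases include Gbp3, which passed the filter through the pcDNA/Prox1 arrays alone. These medians moved with the filter and with single clones: the GTPases stood at 0.22 without the filter, and without pcDNA clone 1 the regulators stood at 0.04 and class I presentation at -0.27. Without pcDNA clone 2, the antiviral effectors stood at 0.13 and class I presentation at 0.15. The difference between classes was not tested.

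**Figure D2:**
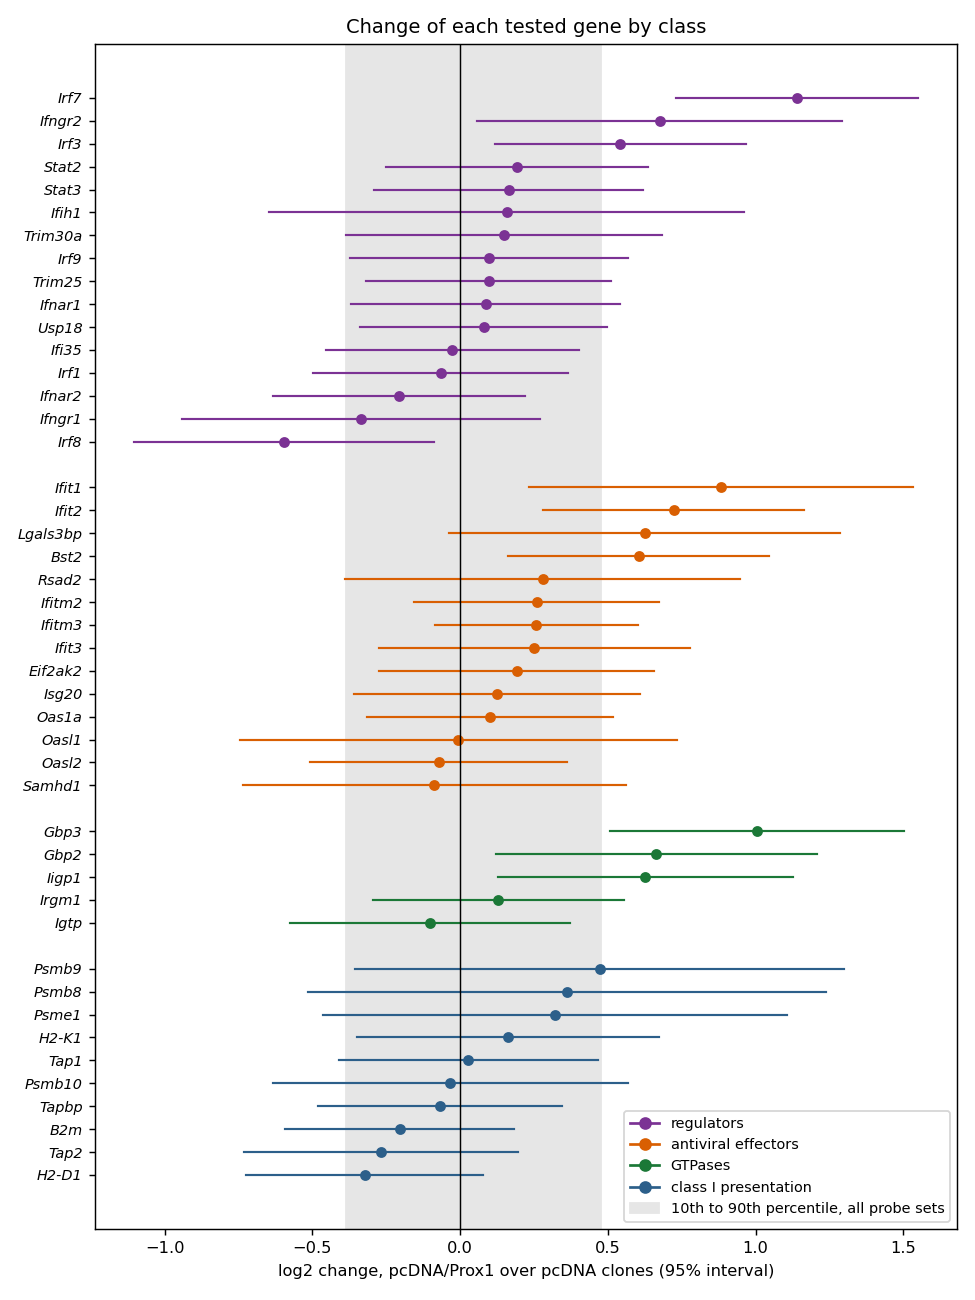
Log2 change of each tested gene, pcDNA/Prox1 over pcDNA clones, with its 95% interval from the limma fit, coloured by class. The grey band spans the 10th to 90th percentile of all probe sets tested (-0.39 to 0.48), and Irf7 (1.14) and Gbp3 (1.00) lie farthest to the right. Gbp3 passed the filter through the pcDNA/Prox1 arrays alone.

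Among the regulators, Irf7, the interferon regulatory factor that drives the type I interferon loop and is itself interferon-induced, had the largest change of all the genes listed. It read 2025 and 2191 in pcDNA/Prox1 clones 1 and 2, against 902 and 958 in pcDNA clones 1 and 2. The groups lay far apart and the clones of each group close together, with means of 2108 ± 118 and 930.0 ± 40.2 (SD, n = 2 each). The change was 2.20-fold (log2 change 1.14 ± 0.18 (SE), limma unadjusted p = 0.00014, adjusted p = 0.0726). It passed the threshold without pcDNA clone 1 (adjusted p = 0.0346) and without pcDNA clone 2 (adjusted p = 0.00555), and over all alternatives the adjusted p lay between 0.00555 and 0.367, the last without the filter.

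Irf3, the constitutive factor that is phosphorylated after sensing of viral nucleic acid, was also higher in both pcDNA/Prox1 clones. It read 1386 and 1220.3 in the pcDNA/Prox1 clones, against 919 and 839 in the pcDNA clones, without overlap (log2 change 0.54 ± 0.19, limma adjusted p = 0.249). That probe set carries a suffix of probe sets that can match several transcripts. The other tested probe sets of Irf3 gave 0.50 (limma adjusted p = 0.337) and, for that without a suffix, 0.29 (limma adjusted p = 0.595). A dim probe set below the filter gave -0.17. Irf8, a factor best known from myeloid cells, was the 1 gene of the list that was lower at an unadjusted p under 0.05. It read 221 and 263 in the pcDNA/Prox1 clones, against 331 and 455 in the pcDNA clones (-0.60 ± 0.22, limma adjusted p = 0.280). Its dimmer probe set read 154 and 203 in the pcDNA/Prox1 clones and 116 and 252 in the pcDNA clones, with full overlap and a change of 0.02.

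The receptor chains did not move as a unit. Ifngr2, the signalling chain of the interferon-gamma receptor, read 528 and 409 in the pcDNA/Prox1 clones, against 200.5 and 368 in the pcDNA clones (log2 change 0.67 ± 0.27, limma adjusted p = 0.306). A second, dimmer probe set of Ifngr2 gave 0.04. The change was 0.30 without pcDNA clone 1 and 1.05 without pcDNA clone 2, where it passed the threshold (limma adjusted p = 0.0190). Ifngr1, the ligand-binding chain, gave -0.34, and the type I receptor chains Ifnar1 and Ifnar2 gave 0.09 and -0.21. Ifnar2 read 462 and 455 in the pcDNA/Prox1 clones, lower than the 548 and 525 of the pcDNA clones.

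Trim25 and Stat3, which with Irf7 were the brightest regulators, gave small differences. Trim25, the ubiquitin ligase that activates the RNA sensor RIG-I, read 1716 and 1989 in the pcDNA/Prox1 clones, against 1761 and 1689.6 in the pcDNA clones (log2 change 0.10). Stat3, a cytokine-activated transcription factor, read 1453 and 1421 in the pcDNA/Prox1 clones, against 1109 and 1471 in the pcDNA clones (0.16). Both groups overlapped for both genes. The remaining tested regulators, which include Irf1, Irf9, Stat2, the negative regulator Usp18, the RNA sensor Ifih1, Trim30a and Ifi35, lay between -0.07 and 0.19. A second probe set of Trim30a gave 0.58 without overlap (limma unadjusted p = 0.0197, adjusted p = 0.255).

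Of the antiviral effectors, 11 of 14 had a positive change and 6 did not overlap between the groups, all 6 higher in the pcDNA/Prox1 clones, where 51.5% of all probe sets were positive and 23.9% higher without overlap. Ifit2, which binds viral RNA and blocks translation, read 951 and 787 in the pcDNA/Prox1 clones, against 498 and 513 in the pcDNA clones (log2 change 0.72 ± 0.20, limma adjusted p = 0.174). Bst2, or tetherin, which holds budding virions at the cell surface, read 2732 and 2294 in the pcDNA/Prox1 clones, against 1477 and 1799 in the pcDNA clones (0.60 ± 0.19, limma adjusted p = 0.225). For both genes every pcDNA/Prox1 value lay above every pcDNA value, and both passed the threshold without pcDNA clone 2 (limma adjusted p = 0.0455 and 0.0354).

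Ifit1, the related sensor of uncapped or incompletely capped RNA, read 1372 and 1182 in the pcDNA/Prox1 clones, against 938 and 474 in the pcDNA clones (log2 change 0.88 ± 0.29, limma adjusted p = 0.228). The groups did not overlap, but the pcDNA clones differed from each other by 0.92, more than the change. The change stood at 1.34 without pcDNA clone 1 (limma adjusted p = 0.0239) and at 0.42 without pcDNA clone 2. Ifit3 of the same gene cluster read 832 and 906 in the pcDNA/Prox1 clones, against 897 and 579 in the pcDNA clones, with overlap (0.25).

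The brightest effectors were the membrane proteins Ifitm3 and Ifitm2, which hinder virus entry, and Rsad2, or viperin, an antiviral enzyme that makes a chain-terminating nucleotide. Ifitm3 read 14304 and 13399 in the pcDNA/Prox1 clones, against 11363 and 11775 in the pcDNA clones, without overlap (log2 change 0.26 ± 0.15, limma adjusted p = 0.479). Ifitm2 read 4495 and 5024 in the pcDNA/Prox1 clones, against 4402 and 3568 in the pcDNA clones (0.26). Rsad2 read 6138 and 4569 in the pcDNA/Prox1 clones, against 6083 and 3118 in the pcDNA clones (0.28), and its 3 probe sets gave changes between 0.16 and 0.33. The Rsad2 change was 0.76 without pcDNA clone 1 and -0.20 without pcDNA clone 2. The oligoadenylate synthetase family, whose enzymatic members make the activator of RNase L, did not separate the groups, with 0.10 for Oas1a, -0.01 for Oasl1 and -0.07 for Oasl2.

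Of the 5 GTPases tested, 4 were higher in both pcDNA/Prox1 clones, where 23.9% of all probe sets were; this count includes Gbp3, which passed the filter through those clones alone. Gbp3, a guanylate-binding protein, read 350.0 and 327 in the pcDNA/Prox1 clones, against 124 and 169 in the pcDNA clones, with means of 339 ± 16 and 146 ± 31.9 (SD, n = 2 each). The change was 2.01-fold (log2 change 1.00 ± 0.22). Because the filter let Gbp3 through on its pcDNA/Prox1 values, the limma fit without the filter is given for it (adjusted p = 0.367). Gbp2, of the same family, read 235 and 318 in the pcDNA/Prox1 clones, against 132 and 182 in the pcDNA clones (0.66 ± 0.24, limma adjusted p = 0.265), and its dimmer probe set, below the filter, gave 0.75. Guanylate-binding protein genes are closely related in sequence, and binding of one transcript to the probes of another was not tested.

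Iigp1, an immunity-related GTPase that attacks parasite vacuoles, read 439.8 and 535 in the pcDNA/Prox1 clones, against 254 and 347 in the pcDNA clones (log2 change 0.63 ± 0.22, limma adjusted p = 0.255). It passed without pcDNA clone 2 (0.82, limma adjusted p = 0.0369). Irgm1, a regulator of that family, read 946 and 1079 in the pcDNA/Prox1 clones, against 897 and 943 in the pcDNA clones (0.13), which is a gap of a few units between the nearest clones. Igtp read 401 and 394 in the pcDNA/Prox1 clones, inside the 496 and 373 of the pcDNA clones (-0.10). The immunity-related GTPases thus lay from -0.10 to 0.63 and the 2 guanylate-binding proteins at 0.66 and 1.00.

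The start regions of these genes can be set beside the values. RefSeq promoter windows of assembly GRCm38.p6 (250 bases before to 50 after an annotated start) were at hand for 49 of the 55 genes, not for Mx1, Mx2, Iigp1, Tap2, Usp18 and Rigi. The letters GAAA, 2 free bases and GAAA again, a core shared by ISRE and Irf sites, were searched on both strands and found in 21 of the 49 (42.9%), against 689 of 17491 protein-coding genes (3.94%). By class they were found in 4 of 4 GTPases, 9 of 17 antiviral effectors, 5 of 17 regulators and 3 of 11 class I genes. The letters TTCNNNGAA of the GAS site, which read the same on both strands, were found in 15 of the 49 (30.6%), against 1560 of 17491 (8.92%). Matches of both kinds overlapped in Bst2 and Ifitm3. These genes are known as interferon-induced and were listed for it, so the shares describe the list.

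The upstream stretches below, 5′ to 3′ on the strand of the gene with each match of this repeated GAAA core (or its reverse complement) in capitals, are shown for genes that were higher in both pcDNA/Prox1 clones (Gbp3, Gbp2, Bst2, Ifit1) and for a pair with the same letters whose groups overlapped (Ifit3, Rsad2).
Gbp3, chr3:142559974-142560039, + strand: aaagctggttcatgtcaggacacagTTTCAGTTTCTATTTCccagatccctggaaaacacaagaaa
Gbp2, chr3:142620579-142620638, + strand: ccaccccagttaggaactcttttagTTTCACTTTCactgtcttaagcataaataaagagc
Bst2, chr8:71537562-71537627, - strand: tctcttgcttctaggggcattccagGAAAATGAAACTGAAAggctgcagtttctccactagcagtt
Ifit1, chr19:34640760-34640838, + strand: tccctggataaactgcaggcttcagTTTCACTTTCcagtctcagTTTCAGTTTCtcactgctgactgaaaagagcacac
Ifit3, chr19:34583348-34583441, + strand: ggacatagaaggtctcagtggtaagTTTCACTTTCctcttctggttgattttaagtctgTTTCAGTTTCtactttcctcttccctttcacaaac
Rsad2, chr12:26456538-26456597, - strand: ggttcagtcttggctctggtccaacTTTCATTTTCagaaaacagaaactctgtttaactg

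The core in capitals stood upstream both of printed genes higher in both pcDNA/Prox1 clones and of printed genes whose groups overlapped. The printed genes were picked, so they do not show how often the core goes with a change. The matches start 45 and 39 bases before the annotated start in Gbp3, overlapping each other, 59 bases before it in Gbp2, and 130 and 124 before it in Bst2, again overlapping. In Ifit1 a pair starts 104 and 85 bases upstream and in Ifit3 another pair 156 and 122 bases upstream. Over the tested genes, the 17 with a match had a median log2 change of 0.25 (15 positive, from -0.21 to 1.00) and the 25 without one a median of 0.09 (14 positive, from -0.60 to 1.14). Irf7, Irf3 and Ifit2, with changes of 1.14, 0.54 and 0.72, had no such match in this window. The 17 include Gbp3, with the limit on its filter given above. For the letters of the GAS site, the 14 tested genes with a match had a median log2 change of 0.09 (8 positive). The 28 without that match, Gbp3 among them, had a median of 0.16 (21 positive). For both motifs, the difference between genes with and without a match was not tested.

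The class I presentation genes showed no common direction, with 5 of 10 changes positive and 5 negative, from -0.32 to 0.47. B2m, the light chain of every class I molecule, read 12769.5 and 12064 in the pcDNA/Prox1 clones, against 12699 and 16136 in the pcDNA clones (log2 change -0.21 ± 0.17, limma adjusted p = 0.637). A second probe set of B2m read 12664 and 13118 in the pcDNA/Prox1 clones, against 12364 and 13298 in the pcDNA clones (0.01). The 95% interval ran from -0.59 to 0.18 for the first probe set and from -0.34 to 0.35 for the second. Changes of B2m within these ranges cannot be told from 0.

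H2-K1, a classical class I heavy chain, read 11071 and 7565 in the pcDNA/Prox1 clones, against 7052 and 9479.6 in the pcDNA clones (log2 change 0.16 ± 0.23, limma adjusted p = 0.798), with the groups interleaved. H2-D1, the other classical heavy chain measured, read 6671 and 6052 in the pcDNA/Prox1 clones, below the 7158 and 8857 of the pcDNA clones (-0.32 ± 0.18, limma adjusted p = 0.439). The 4 probe sets of H2-K1 gave changes from -0.07 to 0.49, and the 7 tested probe sets of H2-D1 gave -0.46 to 0.19. All 4 of H2-K1, and every tested probe set of H2-D1 except that at -0.46, carry the suffix of probe sets that can match several transcripts. Class I heavy chains are near-identical over long stretches, so a value for one of these genes is uncertain. The H2-D1 probe set at -0.46 read 784 and 685 in the pcDNA/Prox1 clones, below the 895 and 1178 of the pcDNA clones (limma unadjusted p = 0.0540, adjusted p = 0.356). Of the 14 genes on the list with several tested probe sets, 5 (Irf8, Samhd1, B2m, H2-K1 and H2-D1) had changes of both signs, and in 0 did they differ by more than 1.

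Of the genes of peptide transport and loading, Tap1, a chain of the peptide transporter, gave 0.03, and Tap2, the partner chain, gave -0.27, with 222 and 258 in the pcDNA/Prox1 clones below the 306 and 289.7 of the pcDNA clones. Tapbp, or tapasin, which tethers class I molecules to the transporter, gave -0.07.

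**Figure D3:**
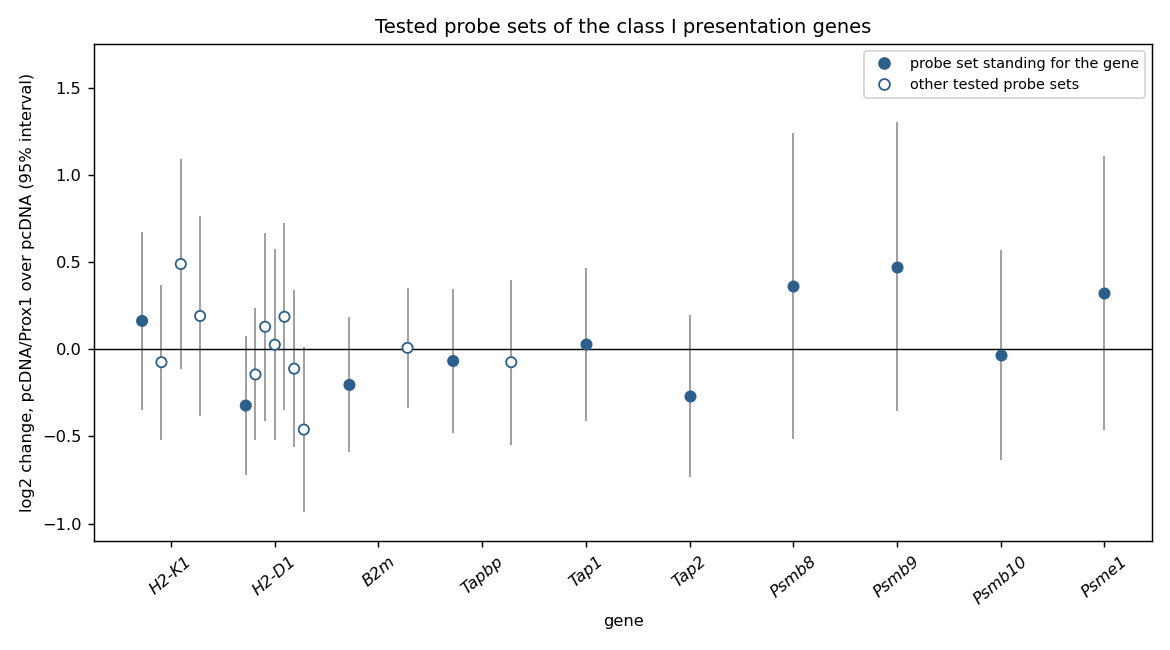
Log2 change, pcDNA/Prox1 over pcDNA clones, of every tested probe set of the class I presentation genes, with 95% intervals from limma. Filled points stand for the gene and open points are its other probe sets, which for H2-D1 span -0.46 to 0.19 on both sides of 0.

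The largest differences in this class lay between the pcDNA clones, in the inducible proteasome. Psmb8 and Psmb9, catalytic subunits that replace constitutive ones when interferon-gamma is present, and Psme1, a subunit of the proteasome activator, were chosen after their values were seen. Psmb8 read 845 and 899 in the pcDNA/Prox1 clones, against 387 and 1130.5 in pcDNA clones 1 and 2. Psmb9 read 401 and 371 in the pcDNA/Prox1 clones, against 151 and 443 in the pcDNA clones. Psme1 read 1802 and 1642 in the pcDNA/Prox1 clones, against 868 and 2141 in the pcDNA clones. In all 3 genes pcDNA clone 1 was lowest, pcDNA clone 2 highest, and both pcDNA/Prox1 clones lay between. Their changes of 0.36, 0.47 and 0.32 (limma adjusted p between 0.606 and 0.734) were -0.36, -0.18 and -0.31 without pcDNA clone 1, and 1.08, 1.12 and 0.95 without pcDNA clone 2, where all 3 passed. Tap1 and Tapbp did not share the difference, at 419 and 378 for Tap1 and 1038 and 1019 for Tapbp in pcDNA clones 1 and 2. Over the class, 7 of 10 genes read higher in pcDNA clone 2 and 3 lower. Those higher include H2-K1, B2m and H2-D1, by smaller log2 differences of 0.42, 0.34 and 0.31.

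Across the list, 31 of 45 genes differed more between the pcDNA clones than between the pcDNA/Prox1 clones. The share of all probe sets for which this held was not counted. Over the whole array the pcDNA clones also differed more, with 355 tested probe sets at least 2-fold apart, against 60 between the pcDNA/Prox1 clones. Only Samhd1 among the 45 genes (2.2%) differed at least 1.5-fold between the pcDNA/Prox1 clones, where 4.33% of all probe sets did. The Samhd1 probe set used, with a suffix for several transcripts, was lower in pcDNA/Prox1 clone 2 (log2 difference -0.89). The other tested probe sets of Samhd1 were higher in that clone (0.63, 0.11 and 0.12). Between the pcDNA clones 13 of 45 (28.9%) differed at least 1.5-fold, where 14.5% of all probe sets did. Of these 13, 8 were higher in pcDNA clone 2 than in pcDNA clone 1, namely Psmb8 (log2 difference 1.44), Psmb9 (1.30), Psme1 (1.26), Lgals3bp (0.96), Ifngr1 (0.79), Ifngr2 (0.74), Psmb10 (0.72) and Trim30a (0.63). The other 5 were lower in pcDNA clone 2, namely Ifih1 (-1.23), Oasl1 (-1.16), Rsad2 (-0.95), Ifit1 (-0.92) and Ifit3 (-0.59).

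The 4 class I genes among the 13 are all proteasome genes and all higher in pcDNA clone 2. Of the 5 antiviral effectors among them, 4 were lower in it and Lgals3bp was higher. Over all 14 tested effectors, 8 read higher in pcDNA clone 2, and the link with class was not tested. Oasl1, a relative of the oligoadenylate synthetases without their enzymatic activity, read 2696 and 2324 in the pcDNA/Prox1 clones, against 3779 and 1667 in the pcDNA clones. Ifih1 read 564 and 434 in the pcDNA/Prox1 clones, against 697 and 271 in the pcDNA clones. Over the 45 genes, 29 read higher in pcDNA clone 2 than in pcDNA clone 1, where 54% of all probe sets did. In 13 of the 45 both pcDNA/Prox1 values lay within the range of the pcDNA clones, and the share of all probe sets that did so was not counted.

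**Figure D4:**
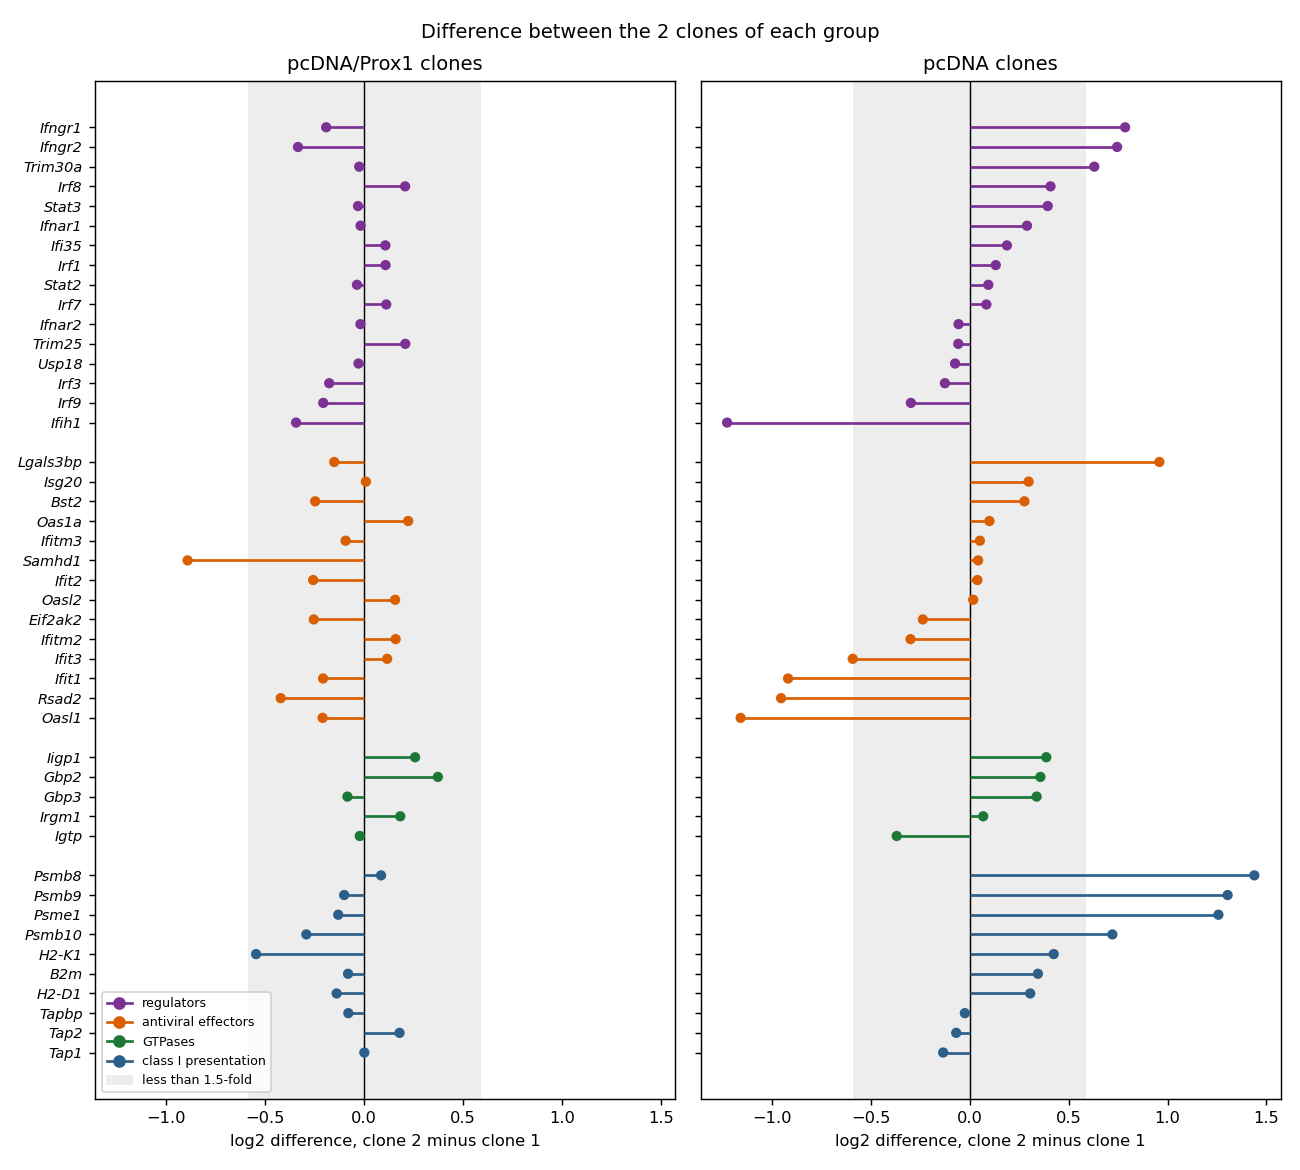
Log2 difference between clone 2 and clone 1 of the pcDNA/Prox1 group (left) and of the pcDNA group (right) for each tested gene, coloured by class, with differences under 1.5-fold in the grey band. On the left only Samhd1 leaves the band, and on the right 8 genes leave it upward and 5 downward.

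Which genes passed depended on the pcDNA clone used. Without pcDNA clone 2, limma called 10 of the 45 genes (22.2%), all higher: Irf7, Ifngr2, Ifit2, Bst2, Lgals3bp, Iigp1, Psmb8, Psmb9, Psme1 and Gbp3, the last with the limit on its filter given above, where 9.87% of all probe sets were called. Without pcDNA clone 1 it called 2, Irf7 and Ifit1, where 1.14% of all probe sets were called. Without either pcDNA/Prox1 clone it called 0, where 0.36% (without clone 1) and 0.575% (without clone 2) of all were called. Irf7 was thus called against each pcDNA clone alone. Over all alternatives the highest limma adjusted p was 0.976 for Ifngr2, 0.854 for Ifit2, 0.967 for Bst2, 0.661 for Ifit1 and 0.824 for Iigp1, and the lowest is the one given with each gene above. In these fits the group with 1 array has no spread of its own.

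Other genes of the pathway were read from a list of 161, of which 121 had a probe set of their own and 72 passed the filter. Limma called 0 of the 72, with 10 higher and 5 lower at an unadjusted p under 0.05 (shares of all probe sets as above), 39 changes positive and a median log2 change of 0.02. Among 31 other interferon-induced genes the median was 0.15 with 21 positive, among 16 signalling genes 0.01 with 8 positive, among 10 genes of nucleic acid sensing 0.17 with 6 positive, and among 15 further genes of class I and II presentation -0.18 with 4 positive.

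The 6 tested genes of that list with the smallest unadjusted p and no overlap between groups held 4 that were higher and 2 that were lower. Cmpk2, an interferon-induced nucleotide kinase whose gene neighbours Rsad2, read 578 and 289 in the pcDNA/Prox1 clones, against 197 and 166 in the pcDNA clones (log2 change 1.01 ± 0.29, limma adjusted p = 0.197). Cxcl10, an interferon-induced chemokine, read 279 and 319.9 in the pcDNA/Prox1 clones, against 188 and 127 in the pcDNA clones (0.77, limma adjusted p = 0.206). Jak1, the kinase shared by both interferon receptors, read 1482 and 1539 in the pcDNA/Prox1 clones, against 915 and 1029 in the pcDNA clones (0.61, limma adjusted p = 0.206). The initiator caspase gene Casp8 gave 0.63.

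The 2 that were lower encode proteins of the peptide loading complex of class I molecules. Pdia3, the disulfide isomerase bound to tapasin, read 3193 and 4710.1 in the pcDNA/Prox1 clones, against 9375 and 6743 in the pcDNA clones (log2 change -1.03 ± 0.24, limma adjusted p = 0.152). Calr, or calreticulin, the chaperone of newly made class I molecules, read 6841 and 6259 in the pcDNA/Prox1 clones, against 10334 and 9777 in the pcDNA clones (-0.62 ± 0.16, limma adjusted p = 0.170). Both are also general folding factors of the endoplasmic reticulum. At a limma unadjusted p under 0.05, 8.65% of all probe sets tested were higher and 5.88% lower. At that level, 7 of the 31 other interferon-induced genes were higher and 1, Cd47 (-0.46), was lower. Of the 15 further presentation genes, 1, Mr1 (0.72), was higher and 2 were lower. Among the signalling genes 2 were higher and 2 lower. Mr1 and Cd47 were named after their values were seen.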

How the data were processed

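The authors deposited linear intensities for every probe set of the 4 arrays, made with MAS5 per the submitters' processing notes. Each array of 22690 probe sets had a mean of 500.0 after trimming 2% at either end, and no further normalization was applied. Precision is limited by the number of arrays: with 2 against 2 clones, an exact permutation test gives no p under 0.333.

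Genes were named only from probe sets that the platform annotation pairs with 1 gene (20380, with 691 paired with several and 1555 with none, beside 64 control probe sets, which were left out). The log2 values are log2(intensity + 47.2), computed here from the deposited intensities, 47.2 being the 25th percentile over all arrays. Changes on this scale understate those of dim probe sets. Limma 3.58.1 in R 4.3.3 was fitted over the 11656 probe sets that exceeded the array median on at least 2 of 4 arrays (lmFit, eBayes with an intensity trend, 2-sided, Benjamini-Hochberg over all probe sets tested). Genes below the filter were read from the same fit without it. Errors are standard errors of the fit for log2 changes and SDs of 2 clones for intensities.

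Values in every clone are given for genes past the threshold or at an unadjusted p under 0.05 and for the 3 brightest of each class. From the related genes, up to 6 of those that passed the filter, with the smallest unadjusted p and no overlap, were named. Others were named after their values were seen. The genes, classes and lists were chosen with earlier results of these data known. Tested on simulated data for this comparison (11656 probe sets, 200 changed), the procedure found 50.0% of the changes of 2-fold and 100% of those of 4-fold, and 14 of its 164 calls were false. The simulated noise was independent between probe sets, with its spread taken from the fitted model. With 164 calls, against 12 in the data, the threshold on the unadjusted p was looser there. These shares therefore do not carry over to the data. Alternatives covered normalization, pseudocount, filter, variance model, clone number as a block, single clones left out and the choice of probe set.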

Additional observations from a re-analysis of the deposited data

How the results depend on the processing

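Over the 15 alternatives, 23 of the 50 genes kept the sign of their log2 change throughout and 27 had the other sign in at least 1 (16 of the 50 have no probe set free of a suffix for several transcripts and so 1 alternative fewer). The count of probe sets called, 12 as reported, was 4 under quantile normalization, 0 without the filter on dim probe sets (limma, 2299 at an unadjusted p under 0.05), 7 with the robust variance model, 110 with the replicate block and 6 among probe sets without a suffix for several transcripts, and it ran from 42 to 1150 on leaving out a clone. The count of listed genes called, 0 as reported, was 1 (Irf7, adjusted p = 0.0201) with the clone number as a block and ran from 0 to 10 on leaving out a clone. The labels do not say whether same-numbered clones were handled together. Their deviations from the group means correlated at -0.009 over probe sets. That shows no deviation shared over the probe sets as a whole and cannot exclude one in a part of them. The median log2 change of the GTPases, 0.63 as reported, was 0.22 without the filter, which adds Mx1 and Mx2, and 0.13 with the filter at the 75th percentile or without suffixed probe sets, which leave fewer genes. On leaving out a clone, the median ran from 0.13 to 0.36 for antiviral effectors and from -0.27 to 0.15 for class I presentation. Leaving out a clone gave changes of both signs for 23 of the 45 tested genes, among them Psmb9 (-0.18 to 1.12), Ifngr1 (-0.73 to 0.057), Ifit3 (-0.045 to 0.55), Ifih1 (-0.46 to 0.77), Oasl1 (-0.59 to 0.57), Samhd1 (-0.53 to 0.36), Psmb10 (-0.39 to 0.33), H2-K1 (-0.11 to 0.44) and Trim30a (-0.17 to 0.46), and for Irf2 below the filter (-0.051 to 0.74). The median over all probe sets stayed between -0.03 and 0.03 under every alternative. The signals of Socs1, Ifitm1, Mx1 and Mx2, near or under those of Bacillus control probe sets, limit what can be read for them.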
